A study of Mus musculus with 11 samples.

Results

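The genes described here are 40 members of the pathways that take up and break down glucose: glucose transporters, glycolytic enzymes, lactate dehydrogenases and lactate transporters, glycogen enzymes, the kinases and the carboxylase that direct pyruvate, and the oxidative and non-oxidative pentose phosphate pathway. They were chosen by gene symbol from the 39017 gene identifiers of the count table, and all 40 were matched to 1 identifier each. Enolase 1 and its near-identical copies were left out of the set. The RNA was pulled down with the HA-tagged ribosomes that Gfap-driven Cre marks in the hippocampus, from 11 female mice at midlife, 12 to 14 months of age, with 1 library per mouse. All mice were on the C57BL/6J background and carried Cre under the mouse Gfap promoter together with the RiboTag allele, in which Cre puts the HA tag on the ribosomal protein RPL22. WT (sham) was wildtype for Esr2, which encodes estrogen receptor β (ERβ), and had sham surgery (3 mice, F1, F3 and F4). ERβ cKO (sham) carried floxed exon 3 Esr2 alleles, which Cre deletes in cells where the Gfap promoter is active, and also had sham surgery (4 mice, F1, F3, F4 and F5). WT (GDX) was wildtype for Esr2 and had been gonadectomized at 2 months of age (4 mice, F1 to F4). The study compared each of the latter groups with WT (sham) to ask what loss of astrocyte ERβ and loss of ovarian hormones do to the astrocyte transcriptome. ERβ cKO (sham) against WT (GDX) differs in genotype and surgery at once and was added here as the remaining pair. The study's methods list separate breeding pairs for astrocyte RiboTag mice and for those lacking astrocyte ERβ, so genotype goes together with breeding line.

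Glycolysis turns glucose into pyruvate, which is either reduced to lactate or enters mitochondria. In the brain, astrocytes hold most of the glycogen store, and lactate that leaves astrocytes through monocarboxylate transporters can be used by neurons. Pyruvate dehydrogenase kinases switch off the enzyme complex that feeds pyruvate to the mitochondria, and the pentose phosphate pathway makes NADPH and ribose from glucose 6-phosphate.

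Sequence bears on how well these genes can be counted from 50-base reads, since several have many processed pseudogenes. For 22 of the 40 members no 50-base window of any coding transcript (GENCODE M21, mm10) occurred in a gene at another locus. For 29 members under 5% of the windows did. Genes that overlap a member's own locus were left out of this count. Over 50% of windows were shared for 2 members, Pgk1 (68.0%) and Gapdh (58.4%), and 41.5% were shared for Pgam1, 20.99% for Ldhb, 19.0% for Gpi1 and 18.4% for Pkm. The handling of reads that match several places is not given in the sources used here, so the levels of these genes are uncertain. The windows below, from the coding sequences in GENCODE M21, show this for 2 of the affected members. They are given in lower case throughout because the whole stretch is shared, and other genes hold each of them without a mismatch.
Gapdh, chromosome 6, coding bases 493 to 542, in 84 other genes: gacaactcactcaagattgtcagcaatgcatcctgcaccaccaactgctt
Pgam1, chromosome 19, coding bases 451 to 500, in 3 other genes: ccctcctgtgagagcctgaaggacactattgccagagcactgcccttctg
The muscle and brain glycogen phosphorylases, by contrast, are separate genes that share little. Only 13 windows of Pygm (0.453%) also occurred in Pygb, in a stretch that starts at the same coding position in both, and no other gene held them.
Pygm and Pygb, coding bases 865 to 914: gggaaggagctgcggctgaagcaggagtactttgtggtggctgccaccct
An exon of 12 members, among them Hk1, Slc2a1, Ugp2, Gapdh and G6pdx, overlaps a gene on the opposite strand. The strand setting of the counting is not given in the sources used here, so reads of such pairs may not have been told apart. An exon of 4 members (Pfkm, Pkm, Pgls and Tkt) overlaps a gene on the same strand, where strand cannot separate the reads.

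Pygm and Pdk2 were the members that passed the test described below, and their promoters are shown with the motifs searched. The 250 bases before the annotated start are given 5′ to 3′ on the gene's strand (RefSeq, GRCm38.p6). Capitals mark the hypoxia response element core (ACGTG or GCGTG on either strand) and the E-box (CACGTG), which contains that core on both strands.
Pygm, chr19:6384158-6384407, plus strand: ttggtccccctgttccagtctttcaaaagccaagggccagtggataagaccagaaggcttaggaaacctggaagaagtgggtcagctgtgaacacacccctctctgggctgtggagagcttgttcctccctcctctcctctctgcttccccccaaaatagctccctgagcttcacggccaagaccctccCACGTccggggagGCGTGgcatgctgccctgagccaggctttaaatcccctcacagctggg
Pdk2, chr11:95041372-95041621, minus strand: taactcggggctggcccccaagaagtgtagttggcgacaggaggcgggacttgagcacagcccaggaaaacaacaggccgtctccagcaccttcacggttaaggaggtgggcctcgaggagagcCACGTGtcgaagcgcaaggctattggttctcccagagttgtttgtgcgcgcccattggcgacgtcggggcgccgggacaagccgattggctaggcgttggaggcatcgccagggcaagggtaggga
Of the members, 37 had a promoter of 300 bases (250 before and 50 after the start) in the table. The core was in a promoter of 31 of these 37 genes (83.8%), against 46.7% of all 27025 genes, and in 71.2% of the 52 member promoters against 43.8% of all 32851. The E-box was in promoters of 6 members (Ldha, Pcx, Pdk2, Pfkfb3, Pfkm and Slc16a1), 16.2% against 8.09% of all genes. The palindromic estrogen response element without a mismatch was in 0 of the 52 member promoters and in 23 of all 32851 (0.07%). It is too rare for its absence from 52 promoters to tell anything about the members. Half-sites and elements with a mismatch were not searched. The background was every gene in the promoter table, not matched to the members in base composition or expression level. The motif matches describe letters in a window and not binding.

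The libraries held 16956233 to 18190968 counts, and the 40 members took 0.932% to 1.20% of them. Levels are given as counts per 1000000 (CPM) of the library size scaled by the trimmed mean of M values (TMM), in the order of the mouse numbers within each group. Fold changes are log2 values, each with a standard error (SE), p values are from edgeR's quasi-likelihood test, and a gene is called changed at a Benjamini-Hochberg adjusted p under 0.1 over all genes tested. Each p tests the difference between groups against the spread between their mice, with the spread of each gene drawn toward that of all genes. Esr2 was at 0 to 7 counts in every library, too low to check the deletion or the labels, and Rpl22, the tagged gene, was at 63.4 to 92.9 CPM. The 12 astrocyte markers were all present, and their summed level was 24128 to 28126 CPM in WT (sham), 21152 to 25491 CPM in ERβ cKO (sham) and 29533 to 35855 CPM in WT (GDX). Neuronal markers were present too, 9663 to 11852 CPM in sum over the 11 libraries, so the pulldown is not RNA of astrocytes alone. In such bulk RNA, fewer cells of a type and less RNA per cell cannot be told apart.

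Aldoc, the aldolase typical of astrocytes, had the highest level per kilobase of exon among the 40 members, with a mean of 975 CPM per kilobase over the 11 mice. Aldoa, the other aldolase of the set, followed at 472, then Ldhb (234), Eno2 (191), Tpi1 (165) and Pkm (154 CPM per kilobase). The mouse ranges of Aldoc (699.6 to 1311) and Aldoa (409.7 to 572 CPM per kilobase) did not overlap, whereas those of Eno2 (165 to 215), Tpi1 (143 to 190) and Pkm (135 to 172) did. At the other end were Slc16a3, a lactate exporter (0.240), Slc16a7, a high-affinity lactate transporter (0.513), and Hk2, the inducible hexokinase (0.800 CPM per kilobase). Gapdh, an abundant enzyme of glycolysis in most tissues, was at only 0.787 CPM per kilobase, beside the sharing of its sequence given above, and Pgk1 and Pgam1 were at 7.95 and 6.41. The median coefficient of variation of the members within groups was 10.1%, and it was 51.9% for Slc2a4, 32.9% for Slc16a3, 30.2% for Gapdh and 29.3% for Slc16a7, all of them low in level.

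**Figure D1:**
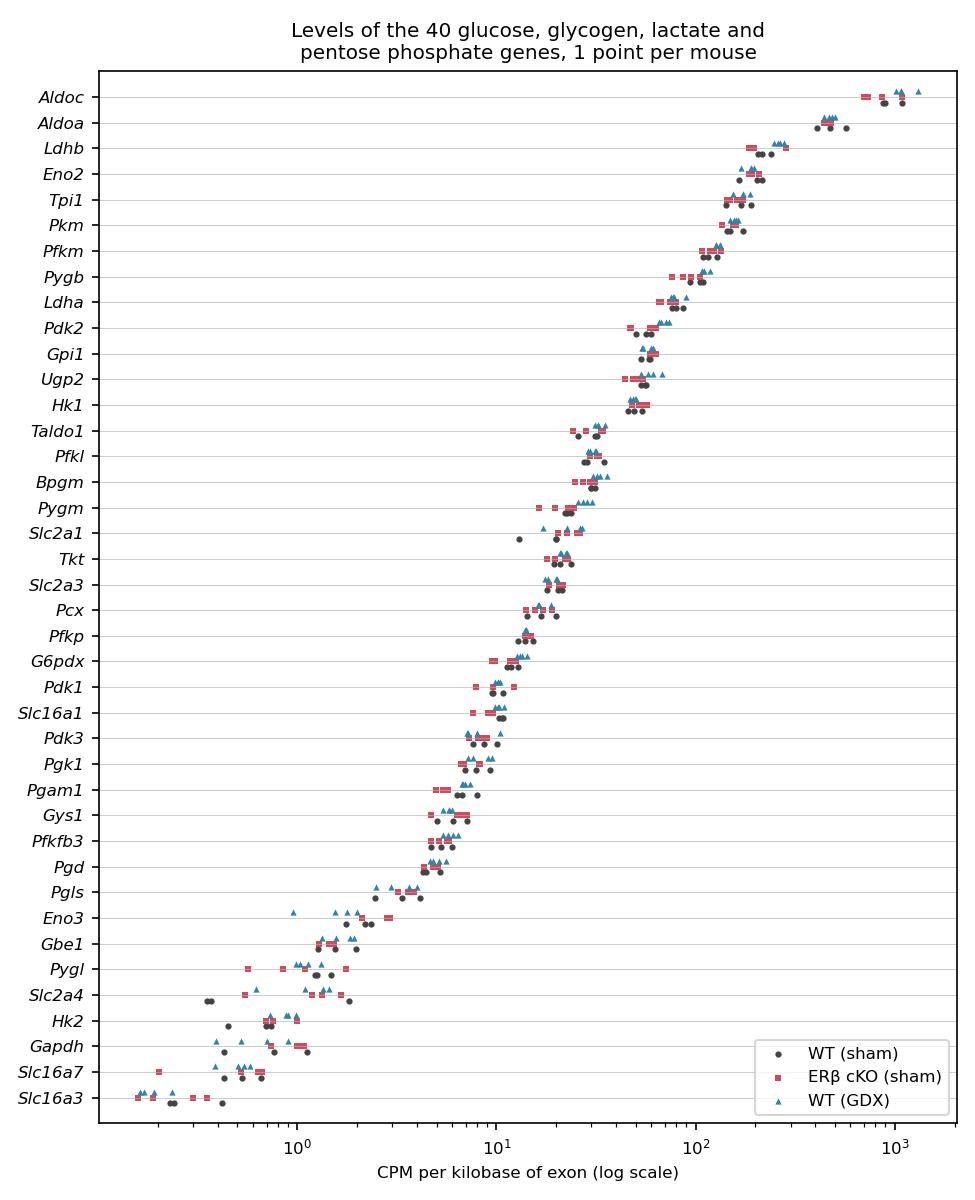
Level of each of the 40 members in each mouse, in CPM per kilobase of exon on a log scale, ordered by the mean over 11 mice; circles are WT (sham), squares ERβ cKO (sham) and triangles WT (GDX). Levels run from a mean of 0.240 for Slc16a3 to 975 for Aldoc, and the groups overlap for most genes.

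No member passed the test after loss of ERβ in astrocytes. In ERβ cKO (sham) against WT (sham), 0 of 40 members were called changed, against 0.0301% of 19938 genes. DESeq2 also called 0 members and 0.261% of genes. At an unadjusted p under 0.05 there was 1 member, the glucose transporter Slc2a1, which was higher (5.33% of all genes passed this level, and 3.24% did so as higher). The groups did not overlap for 3 members (7.5%), against 6.33% of all genes. The median log2 fold change of the members was -0.04, against 0.00 for all genes, and 16 of 40 were above 0, against 50.8% of all.

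After gonadectomy no member passed the quasi-likelihood test either. In WT (GDX) against WT (sham), 0 of 40 members were called, against 0.437% of 19695 genes, while DESeq2 called 1 member, Pdk2, and 1.05% of genes. Unadjusted p was under 0.05 for 4 members (10%), against 7.98% of all genes, and all 4 were higher in WT (GDX) (4.5% of all genes were higher at this level). They were Pdk2, Pygm, Ldhb and Aldoc. Groups did not overlap for 3 members, Pdk2, Pygm and Ldhb, against 8.43% of all genes. The median of the members was 0.02, and 22 of 40 were above 0, against 48.6% of all genes. Both comparisons use the same 3 WT (sham) mice.

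With the filter and all mice kept, the quasi-likelihood test called members in the comparison of the knockout with the gonadectomized mice and in neither comparison with WT (sham). In WT (GDX) against WT (sham), without the filter it called 2 members (Pdk2 and Slc2a1) and 1.2% of all genes. It also called 2 members without WT (sham) F4 (Ldhb and Pdk2, with 1.36% of all genes) and without WT (sham) F1 (Pdk2 and Slc2a4, with 0.515%). In ERβ cKO (sham) against WT (GDX), 2 of 40 members (5%) were called, against 4.15% of 19759 genes, a share close to that of all genes. Both were lower in ERβ cKO (sham), as were 2.22% of all genes. They were Pygm, the muscle form of glycogen phosphorylase, and Pdk2, a pyruvate dehydrogenase kinase. DESeq2 called 7 members (17.5%) and 8.24% of all genes. Unadjusted p was under 0.05 for 12 members (30%), against 17.2% of all genes, and 10 of these were lower (25%, against 8.36% of all genes). Groups did not overlap for 7 members, against 9.82% of all genes. The members' median was -0.07, against 0.00 for all genes, and 13 of 40 were above 0, against 50.2% of all. Over the 3 groups at once, 0 members were called, against 1.17% of 18882 genes, and 10 members (25%) had an unadjusted p under 0.05, against 12.6% of all genes.

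**Figure D2:**
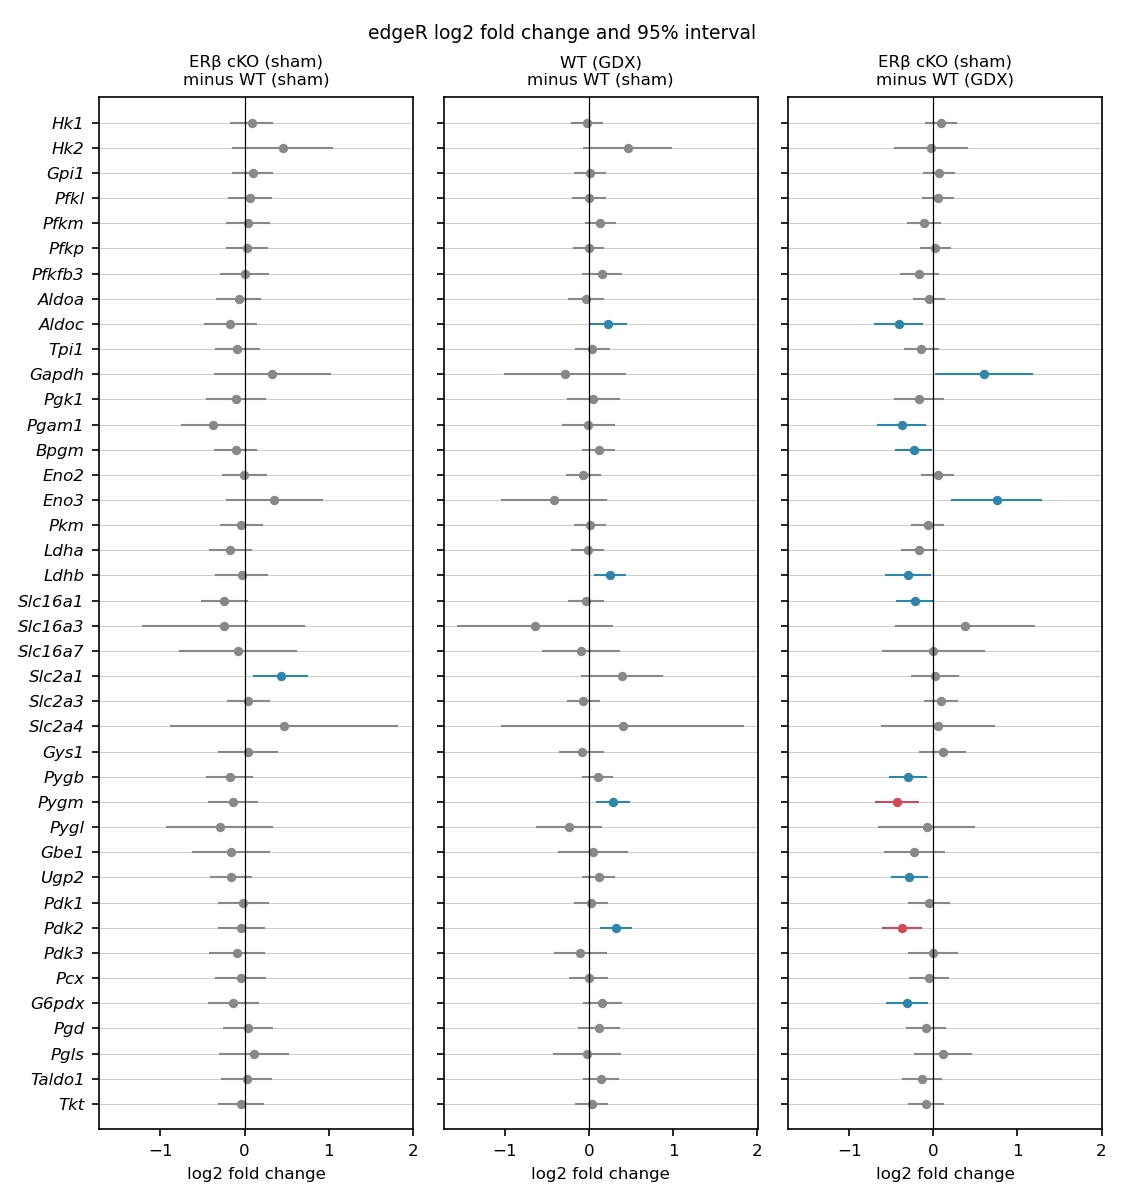
Log2 fold change of each member with its 95% interval in the 3 comparisons, from edgeR's quasi-likelihood test; red marks an adjusted p under 0.1, blue an unadjusted p under 0.05 and gray the rest. Red appears only for Pygm and Pdk2 in ERβ cKO (sham) against WT (GDX), where 10 of the 12 colored members lie below 0.

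Among the glucose transporters, Slc2a1, the transporter of the blood-brain barrier and astrocytes, was the member with the smallest unadjusted p between the knockout and WT (sham). Slc2a1 was at 69.99, 45.7 and 70.1 CPM in WT (sham), 79.4, 92.5, 89.5 and 71.8 CPM in ERβ cKO (sham) and 92.2, 94.4, 79.4 and 59.8 CPM in WT (GDX). Every ERβ cKO (sham) mouse was above every WT (sham) mouse, by a narrow margin over F1 and F4, while WT (sham) F3 and WT (GDX) F4 were low within their groups. The log2 fold change from WT (sham) was 0.43 (SE 0.15, unadjusted p = 0.0104, adjusted p = 0.792), and it did not pass the test. In WT (GDX) it was 0.39 (SE 0.20, unadjusted p = 0.0900, adjusted p = 0.710), with overlapping groups. Endothelial markers moved in the same comparison: 10 of 10 were higher in ERβ cKO (sham) than in WT (sham), 6 of them at an unadjusted p under 0.05 and 0 called, with summed levels of 129 to 180 CPM against 47.2 to 135 CPM and no marker at 0, and their part in the Slc2a1 difference was not tested. In WT (GDX) they summed to 49.3 to 103 CPM. Slc2a3, the neuronal transporter, was at 126 to 156 CPM in all libraries and differed by 0.04 and -0.07 from WT (sham) in the knockout and the gonadectomized mice. Slc2a4, the insulin-responsive transporter, was low and scattered, at 1.22 to 6.32 CPM. Within WT (sham) it was at 6.32 CPM in F1 against 1.28 and 1.22 CPM in F3 and F4. Without WT (sham) F1 it was called higher in WT (GDX) than in WT (sham).

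No gene of the opening steps of glycolysis passed the test. Hk1, the hexokinase that traps glucose as glucose 6-phosphate in most brain cells, had group means of 423 ± 35.7 (SD, n = 3), 449 ± 30.9 (n = 4) and 417 ± 11.9 CPM (n = 4) for the sham wildtype, knockout and gonadectomized mice. Hk2 was at 2.68 to 5.97 CPM, with fold changes of 0.45 and 0.46 from WT (sham) and wide intervals. Gpi1, which converts glucose 6-phosphate to fructose 6-phosphate, and the phosphofructokinase subunits Pfkl, Pfkm and Pfkp, which form the committed step, lay within 0.14 of 0 in all 3 comparisons on the log2 scale. Pfkp was the steadiest gene of this group, at 187 to 189 CPM in the 4 WT (GDX) mice. Pfkfb3, which makes the activator of phosphofructokinase, was at 35.3 to 48.6 CPM, with 0.15 in WT (GDX) against WT (sham) and -0.17 in ERβ cKO (sham) against WT (GDX). None of these 7 genes reached an unadjusted p of 0.05 in any comparison.

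In lower glycolysis no member was called, though several had an unadjusted p under 0.05 between the knockout and the gonadectomized mice. Aldoc was at 3559, 2849 and 2921 CPM in WT (sham), 2399, 2283, 2824 and 3559 CPM in ERβ cKO (sham) and 3321, 3498, 3520.4 and 4278 CPM in WT (GDX). Its lowest values were those of ERβ cKO (sham) F1 and F3, and ERβ cKO (sham) F5 was level with the highest WT (sham) mouse. Fold changes were 0.23 (SE 0.10, unadjusted p = 0.0312, adjusted p = 0.563) for WT (GDX) against WT (sham) and -0.41 (SE 0.13, unadjusted p = 0.00622, adjusted p = 0.116) for ERβ cKO (sham) against WT (GDX), neither of them called. Aldoa was at 1665, 1373 and 1193 CPM in WT (sham), 1294, 1292, 1378 and 1399 CPM in ERβ cKO (sham) and 1356, 1412, 1284 and 1456 CPM in WT (GDX). The spread of Aldoa was widest within WT (sham), and no comparison was farther from 0 than -0.07 on the log2 scale.

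Tpi1, which interconverts the triose phosphates, was at 522, 464 and 394 CPM in WT (sham), 409, 398, 446 and 479 CPM in ERβ cKO (sham) and 475, 477, 425 and 518 CPM in WT (GDX). Eno2, the neuronal enolase, was at 1014, 953 and 776 CPM in WT (sham), 871, 892, 981 and 905 CPM in ERβ cKO (sham) and 889, 896, 792 and 920.4 CPM in WT (GDX). For both genes WT (sham) F1 was highest, F4 was lowest, and the other groups fell inside that range. Pkm, which encodes the pyruvate kinase that makes pyruvate, was at 862, 743 and 721 CPM in WT (sham), 767, 676, 795 and 777 CPM in ERβ cKO (sham) and 781, 798, 745 and 813 CPM in WT (GDX). The groups overlapped for all of these 3 genes, with log2 fold changes between -0.14 and 0.05.

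Bpgm, which makes 2,3-bisphosphoglycerate, was at 112, 107 and 107 CPM in WT (sham), 89.3, 97.5, 106 and 112 CPM in ERβ cKO (sham) and 129, 115, 109 and 118 CPM in WT (GDX). ERβ cKO (sham) F1 and F3 were below every other mouse, and the contrast with WT (GDX) was -0.24 (SE 0.10, unadjusted p = 0.0278, adjusted p = 0.227). Eno3, the muscle enolase, was at 3.05, 4.08 and 3.78 CPM in WT (sham), 5.08, 4.89, 3.65 and 4.95 CPM in ERβ cKO (sham) and 3.47, 3.08, 2.69 and 1.64 CPM in WT (GDX). The ERβ cKO (sham) mice were all above the WT (GDX) mice, with a fold change of 0.75 (SE 0.25, unadjusted p = 0.00767, adjusted p = 0.126), and WT (GDX) F4 and ERβ cKO (sham) F4 were low in their groups. Eno3 was at most 5.08 CPM in any library.

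Pgam1, Gapdh and Pgk1 had the highest shares of windows found in other genes (41.5% to 68.0%), so their counts are the least certain on that measure. Pgam1, a phosphoglycerate mutase, was at 15.8, 13.3 and 12.5 CPM in WT (sham), 9.82, 11.2, 10.6 and 11.3 CPM in ERβ cKO (sham) and 13.8, 14.7, 13.4 and 13.3 CPM in WT (GDX). All ERβ cKO (sham) mice lay below all mice of both other groups, with -0.37 (SE 0.18, unadjusted p = 0.0501, adjusted p = 0.932) against WT (sham) and -0.38 (SE 0.13, unadjusted p = 0.0111, adjusted p = 0.150) against WT (GDX). Gapdh was at 1.77, 3.14 and 4.60 CPM in WT (sham), 4.13, 4.48, 3.04 and 4.27 CPM in ERβ cKO (sham) and 3.70, 2.91, 1.61 and 2.15 CPM in WT (GDX). It was higher in ERβ cKO (sham) than in WT (GDX) by 0.60 (SE 0.27, unadjusted p = 0.0396, adjusted p = 0.264), with overlapping groups and few reads. Pgk1, which makes ATP from 1,3-bisphosphoglycerate, was at 14.96 to 21.4 CPM, with overlapping groups and -0.10, 0.05 and -0.17 in the 3 comparisons.

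No gene of lactate use was called. Ldhb, the form that favors conversion of lactate to pyruvate, was at 338, 323 and 377 CPM in WT (sham), 290.3, 300.4, 310.1 and 448 CPM in ERβ cKO (sham) and 418, 387, 408 and 435 CPM in WT (GDX). All WT (GDX) mice were above all WT (sham) mice, and the knockout was split, with 3 mice below every WT (sham) mouse and F5 above all 10 other mice. Accordingly WT (GDX) against WT (sham) gave 0.25 (SE 0.09, unadjusted p = 0.00707, adjusted p = 0.343), and the contrast of ERβ cKO (sham) with WT (GDX), which was -0.30 (SE 0.12, unadjusted p = 0.0244, adjusted p = 0.215), was -0.47 without ERβ cKO (sham) F5 (adjusted p = 0.000630), the mouse singled out for its high value. With any 1 of the other 7 mice left out it was -0.32 to -0.23 (adjusted p 0.291 to 0.509) and was not called. Ldha, the form that favors lactate production, had means of 267 ± 16.7 (SD, n = 3), 238 ± 22.4 (n = 4) and 265 ± 21.9 CPM (n = 4), and differed by -0.02 between WT (GDX) and WT (sham).

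Slc16a1 (MCT1), the lactate transporter of astrocytes and endothelium, was at 45.5, 47.6 and 47.0 CPM in WT (sham), 33.6, 41.3, 42.5 and 40.3 CPM in ERβ cKO (sham) and 43.8, 45.3, 48.2 and 45.0 CPM in WT (GDX). Each ERβ cKO (sham) mouse was below each WT (sham) mouse and each WT (GDX) mouse, with -0.24 (SE 0.13, unadjusted p = 0.0715, adjusted p = 0.941) and -0.22 (SE 0.10, unadjusted p = 0.0454, adjusted p = 0.279), so neither contrast was called. Slc16a3 was at 0.843 to 2.22 CPM and Slc16a7, the transporter of neurons, at 2.39 to 7.86 CPM, and a difference between groups was not detectable for either at this depth.

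Glycogen breakdown held the larger of the called differences. Pygm (chromosome 19 of mm10, 6384399 to 6398459, plus strand) was at 76.6, 71.5 and 73.0 CPM in WT (sham), 63.5, 52.6, 78.7 and 73.5 CPM in ERβ cKO (sham) and 82.4, 87.2, 92.2 and 97.4 CPM in WT (GDX). All WT (GDX) mice were above all mice of the other groups, and ERβ cKO (sham) F1 and F3 were below all others, while F4 was above and F5 within the range of WT (sham). Pygm fell by 0.43 (log2, SE 0.12, adjusted p = 0.0733) from WT (GDX) to ERβ cKO (sham), from 89.8 ± 6.47 to 67.1 ± 11.5 CPM (SD, n = 4 each). WT (GDX) against WT (sham) was 0.28 (SE 0.09, unadjusted p = 0.00490, adjusted p = 0.290), and ERβ cKO (sham) against WT (sham) was -0.13 (SE 0.14, unadjusted p = 0.336, adjusted p = 0.971).

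Pygb, the brain glycogen phosphorylase and the main form by level here (101 against 23.97 CPM per kilobase for Pygm), was at 526, 451 and 508 CPM in WT (sham), 415, 367, 458 and 509 CPM in ERβ cKO (sham) and 517, 529, 567 and 517 CPM in WT (GDX). ERβ cKO (sham) and WT (GDX) did not overlap, with -0.30 (SE 0.10, unadjusted p = 0.00949, adjusted p = 0.141). Pygl, the liver form, was at 3.90 to 12.2 CPM and scattered most in ERβ cKO (sham). Ugp2, which makes the UDP-glucose used for glycogen synthesis, was at 171, 173 and 163 CPM in WT (sham), 136, 149, 155 and 167 CPM in ERβ cKO (sham) and 187, 163, 177 and 208 CPM in WT (GDX). Its group means had the same order, with -0.29 (SE 0.10, unadjusted p = 0.00958, adjusted p = 0.141) and overlap of the knockout with the lowest WT (GDX) mouse. The synthase Gys1, which extends glycogen chains, was at 22.6 to 34.0 CPM with 0.11 between knockout and gonadectomized mice, and the branching enzyme Gbe1 was at 6.81 to 10.6 CPM with -0.23. In all, 3 of the 6 glycogen members (Pygm, Pygb and Ugp2) were lower in ERβ cKO (sham) than in WT (GDX) at an unadjusted p under 0.05 and 1 of them was called, where 8.36% of all genes were lower at that level and 2.22% were called lower. In the same comparison 12 of 12 astrocyte markers were lower at an unadjusted p under 0.05, and their part in these differences was not tested.

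Pdk2 (chromosome 11 of mm10, 95026258 to 95041354, minus strand), which inhibits pyruvate dehydrogenase, was at 189, 159.7 and 179 CPM in WT (sham), 149.6, 148, 186 and 201 CPM in ERβ cKO (sham) and 212, 233, 226 and 208 CPM in WT (GDX). The lowest WT (GDX) mouse was above the highest mouse of either other group, and ERβ cKO (sham) F1 and F3 were again the lowest of all. Pdk2 fell by 0.37 (log2, SE 0.11, adjusted p = 0.0876) from WT (GDX) to ERβ cKO (sham), from 219 ± 11.8 to 171 ± 26.5 CPM (SD, n = 4 each). WT (GDX) against WT (sham) was 0.32 (SE 0.09, unadjusted p = 0.00125, adjusted p = 0.166), and ERβ cKO (sham) against WT (sham) was -0.04 (SE 0.13, unadjusted p = 0.783, adjusted p = 0.994). The relatives of Pdk2, Pdk1 and Pdk3, were at 61.6 to 95.4 and 18.2 to 26.6 CPM, with 0.02 and -0.10 in WT (GDX) against WT (sham). Pcx, the pyruvate carboxylase of astrocytes that replenishes the citric acid cycle, was at 66.8 to 95.2 CPM with log2 fold changes of -0.04, -0.0047 and -0.05 in the 3 comparisons.

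**Figure D3:**
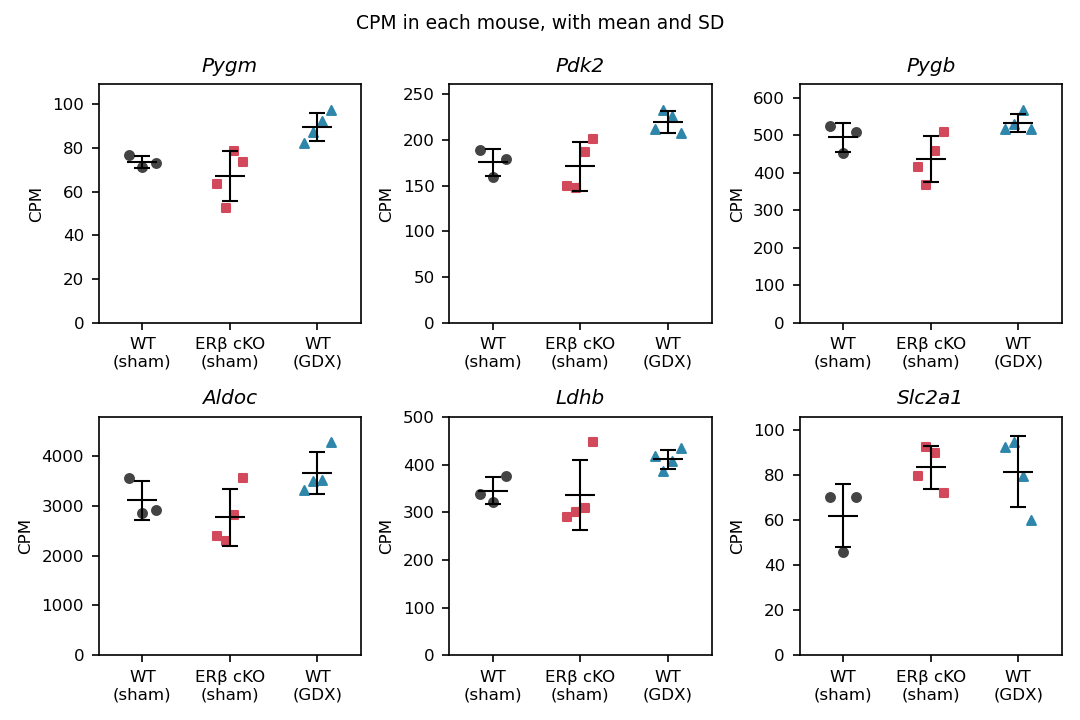
CPM of Pygm, Pdk2, Pygb, Aldoc, Ldhb and Slc2a1 in each mouse (points), with the mean and SD of each group (bars); axes start at 0. For Pygm, WT (GDX) runs from 82.4 to 97.4 CPM and ERβ cKO (sham) from 52.6 to 78.7 CPM.

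Both calls depended on the mice included. Leaving out 1 mouse at a time, 6 of 8 leave-outs ended both: adjusted p for Pygm was 0.133 to 0.224 and for Pdk2 0.181 to 0.282 without ERβ cKO (sham) F1 or F3 or without any WT (GDX) mouse. Leaving out ERβ cKO (sham) F5 or F4 kept both calls, with adjusted p of 0.0133 and 0.0285 for Pygm and 0.00292 and 0.0599 for Pdk2. In the 6 runs that ended both calls, the log2 fold change was -0.46 to -0.33 for Pygm and -0.39 to -0.30 for Pdk2. In these 6 runs 0.515% to 1.66% of all genes were called, against 4.15% with all mice. Without F5 or F4 the shares were 12.2% and 6.84%.

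No pentose phosphate gene was called. G6pdx, the rate-limiting enzyme of the oxidative branch, was at 36.5, 39.7 and 34.7 CPM in WT (sham), 30.3, 29.2, 36.2 and 38.7 CPM in ERβ cKO (sham) and 43.9, 39.2, 40.7 and 41.6 CPM in WT (GDX). ERβ cKO (sham) and WT (GDX) did not overlap, with -0.31 (SE 0.11, unadjusted p = 0.0131, adjusted p = 0.161), again with the knockout mice F1 and F3 lowest. Pgls and Pgd, the next enzymes of that branch, were at 9.26 to 15.7 and 27.6 to 36.1 CPM, with 0.12 and -0.09. Taldo1 and Tkt, which rearrange the sugars of the non-oxidative branch, were at 52.9 to 75.9 and 131 to 173 CPM, with -0.13 and -0.09, and none of the 4 reached an unadjusted p of 0.05.

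Astrocyte markers moved with the called members. Of the 12 markers, 10 were called lower and all 12 were lower in ERβ cKO (sham) than in WT (GDX), with a median log2 fold change of -0.48 and none at 0. In WT (GDX) against WT (sham) 3 were called higher and 11 were above 0 (median 0.26), and for the knockout against WT (sham) 0 were called and 12 were below 0 (median -0.16). On the mean log2 CPM of the 12 markers, ERβ cKO (sham) F1 and F3 were lowest, at 9.33 and 9.39, and F4 and F5 were at 9.63 and 9.68. WT (sham) was at 9.64 to 9.82 and WT (GDX) at 9.95 to 10.13, so ERβ cKO (sham) and WT (GDX) differed by -0.49 (exact two-sided permutation p = 0.0286, the smallest that 4 against 4 can give). WT (GDX) and WT (sham) differed by 0.28 (exact p = 0.0571, the smallest for 4 against 3). Subtracting this mean in each mouse, a scale chosen after the data were seen, raises every gene by the same 0.49 in ERβ cKO (sham) against WT (GDX). On it Pygm differed by 0.06 (exact p = 0.600) and Pdk2 by 0.12 (exact p = 0.114), with overlapping groups for both, and all 40 members were above 0 (median 0.41). How much of the fall of Pygm and Pdk2 goes with the astrocyte content of the samples was not tested. Neuronal markers differed less (median 0.04, 1 called higher and 0 lower). All 10 endothelial markers were higher in ERβ cKO (sham) than in WT (GDX), 5 of them called (median 0.97), in the opposite direction to Pygm and Pdk2. All 7 mural markers were higher there too (median 0.84, 5 at an unadjusted p under 0.05 and 0 called), with summed levels of 109 to 135 CPM in ERβ cKO (sham), 63.5 to 104 CPM in WT (GDX) and 68.2 to 120.2 CPM in WT (sham), and 2 were higher at that level against WT (sham). Choroid plexus markers set WT (sham) apart: their summed level was 56.1 to 197 CPM there, 23.0 to 30.5 CPM in the knockout and 21.9 to 27.2 CPM in WT (GDX). Against WT (sham), 3 of 7 tested were called lower in ERβ cKO (sham) and 5 of 7 after gonadectomy, so they are 3 of the 6 genes called for the knockout, and their part in the members' values in WT (sham) was not tested. All 8 ependymal markers were below 0 in both of these comparisons, with 0 and 1 called. Among 8 oligodendrocyte and 8 microglial markers 0 were called in any comparison, and of 5 oligodendrocyte precursor markers 1 was called higher and 1 lower in ERβ cKO (sham) against WT (GDX).

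**Figure D4:**
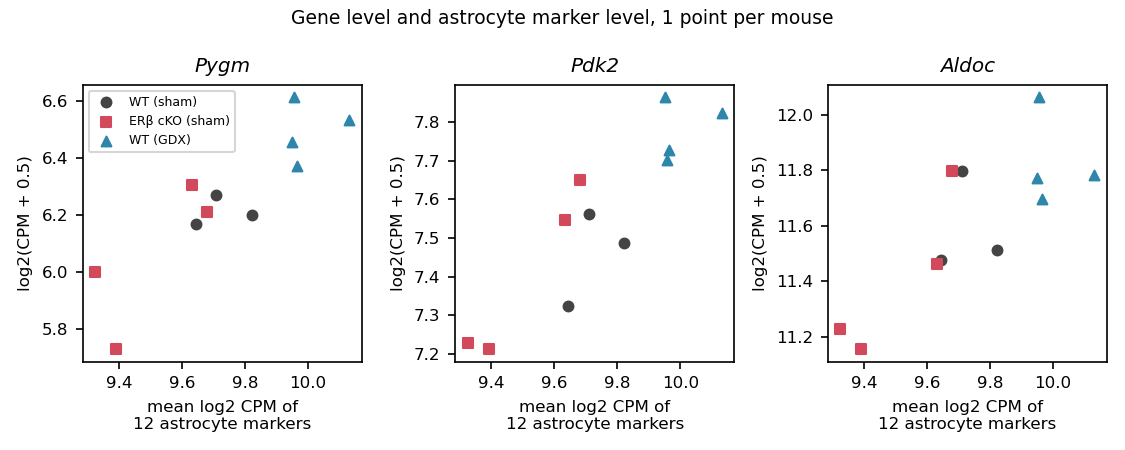
Log2(CPM + 0.5) of Pygm, Pdk2 and Aldoc (vertical axes) against the mean log2 CPM of 12 astrocyte markers (horizontal axes), 1 point per mouse. The 4 WT (GDX) mice lie at 9.95 to 10.13 on the marker axis and the ERβ cKO (sham) mice F1 and F3 at 9.33 and 9.39, at the low end of each gene.

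The share of each isozyme in its family, computed from reads per kilobase, does not depend on the size of the library. Ldha made up 26.9% ± 2.38 (SD, n = 3) of the lactate dehydrogenase level in WT (sham), 25.3% ± 2.33 (n = 4) in ERβ cKO (sham) and 23.3% ± 0.938 (n = 4) in WT (GDX). Aldoc was 66.4%, 64.4% and 70.2% of the aldolases, Pdk2 was 74.8%, 74.7% and 79.1% of the sum of Pdk1, Pdk2 and Pdk3 (Pdk4 is not in this sum), and Pygb was 80.9%, 80.6% and 79.2% of the phosphorylases in the same order. Slc2a1 held 45.8% ± 6.84 of the sum of Slc2a1, Slc2a3 and Slc2a4 in WT (sham), against 52.3% ± 1.49 in ERβ cKO (sham) and 53.3% ± 5.43 for WT (GDX). Slc16a1 held 92.7%, 92.2% and 93.7% of the sum of Slc16a1, Slc16a3 and Slc16a7. Hk1 held 98.8%, 98.4% and 98.3% of the sum of Hk1 and Hk2. Other hexokinase and glucose transporter genes, such as Hkdc1 and Slc2a12, are not in these sums. The groups did not overlap in 2 of 27 contrasts, both WT (GDX) against WT (sham): Pfkm was 72.6% ± 0.832 of the phosphofructokinases in WT (sham) and 74.5% ± 0.780 in WT (GDX), and Pfkp was 8.69% ± 0.194 and 8.08% ± 0.161 (exact two-sided permutation p = 0.0571 for each, the smallest possible). After adjustment over the 27 contrasts the lowest p was 0.281, so no share passed. Astrocyte and endothelial marker levels differed between the groups, as given above, and their part in the shares was not tested.

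**Figure D5:**
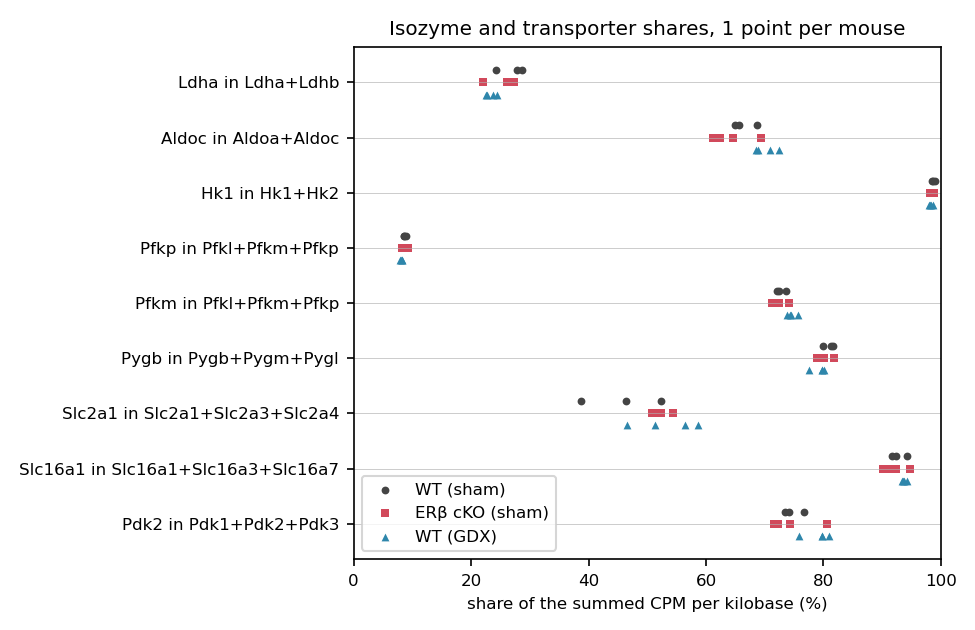
Share of 1 isozyme or transporter in the summed CPM per kilobase of its family, in percent, for 9 shares and 11 mice; circles are WT (sham), squares ERβ cKO (sham) and triangles WT (GDX). Most groups overlap, and the Slc2a1 share spreads from 38.6% to 58.6%.

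Of the other genes of these pathways, outside the 40, some passed the test. Pdk4, the fasting-induced pyruvate dehydrogenase kinase, rose in WT (GDX) against WT (sham) by 0.77 (SE 0.12, adjusted p = 0.00331, 45.9 against 27.0 CPM) and was -0.90 (SE 0.15, adjusted p = 0.0135) in ERβ cKO (sham) against WT (GDX). It was the only gene called of 10 for pyruvate dehydrogenase and pyruvate entry. Txnip, which restrains glucose uptake, behaved likewise among 16 regulators, at 0.81 (adjusted p = 0.00889) and -0.84 (adjusted p = 0.0108), and Epas1, a hypoxia-inducible factor, was at -0.39 (adjusted p = 0.0434) in the latter comparison.

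Among 18 tested other glycogen genes, Phkg1, the catalytic subunit of phosphorylase kinase, which activates the phosphorylases, rose in WT (GDX) against WT (sham) by 0.42 (adjusted p = 0.0981) and was -0.39 (adjusted p = 0.0959) in ERβ cKO (sham) against WT (GDX). Ppp1r3c, a glycogen-targeting subunit of protein phosphatase 1, was at -0.43 (adjusted p = 0.0593) in the latter, and no other glycogen gene was called. Among other glycolysis genes, Hkdc1 (0.82, adjusted p = 0.0733) and Eno1 (0.71, adjusted p = 0.00802) were called higher and Eno1b (-0.86, adjusted p = 0.0116) lower in ERβ cKO (sham) than in WT (GDX). Hkdc1 had a mean of 4.77 CPM in ERβ cKO (sham) and 2.68 CPM in WT (GDX). Eno1 was also called higher in ERβ cKO (sham) than in WT (sham) (0.80, adjusted p = 0.0366, 87.8 against 50.5 CPM). In that comparison Eno1b was lower and not called (-0.85, quasi-likelihood adjusted p = 0.122, 18.1 against 32.6 CPM), with groups that did not overlap. Eno1 and Eno1b are near-identical copies, and whether reads of Eno1 and Eno1b were told apart was not tested. Of 12 hypoxia-responsive genes outside glucose use, Ddit4 (-0.44, adjusted p = 0.0431) and Ndrg1 (-0.32, adjusted p = 0.0917) were called lower in ERβ cKO (sham) than in WT (GDX).

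No gene was called in any comparison among gluconeogenesis genes, other transporters or other pentose phosphate genes. The smallest unadjusted p values there were those of Slc37a4, the glucose 6-phosphate transporter (0.36 in WT (GDX) against WT (sham), unadjusted p = 0.0101, adjusted p = 0.381), Emb, a chaperone of lactate transporters (-0.39 in ERβ cKO (sham) against WT (sham), unadjusted p = 0.0260, adjusted p = 0.870), and Prps1, which uses ribose 5-phosphate (-0.23 in ERβ cKO (sham) against WT (GDX), unadjusted p = 0.0251, adjusted p = 0.217), all of them from edgeR's quasi-likelihood test.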

How the data were processed

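RNA of HA-tagged ribosomes from the hippocampus was sequenced in 11 mice (KAPA stranded kit). The submitters' processing notes name bcl2fastq 2.17, FastQC and Trimmomatic, and per the study's methods QuasR did the alignment (mm10) and the gene-level counting. The file holds whole-number counts for each Ensembl identifier, deposited by the authors without normalization. No source used here gives the annotation release or how strand and multiple matches were set. Names, exon lengths and places came from GENCODE M21, which held 37693 of 39017 identifiers, and the other 1324 held 0.492% of the counts.

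A gene was tested unless its count was below 1 in over 3 samples of that comparison. Counts were TMM-normalized and compared with edgeR 4.0.16 (quasi-likelihood, robust, limma 3.58.1, R 4.3.3), with Benjamini-Hochberg adjustment over all genes tested and a call at an adjusted p under 0.1. The study's methods give edgeR and this threshold but not the edgeR test. The spread was estimated within each pair of groups. The fit was tested on simulated counts with known changes. Permutation tests were exact and two-sided, on log2(CPM + 0.5) for members, the mean log2 CPM for the astrocyte markers, or shares. Their p is double the smaller tail, so that 3 against 4 mice cannot go below 0.0571. An earlier run counted absolute differences, and the change to doubling was made after values had been seen. Alternatives varied the normalization, filter, threshold, test (DESeq2 1.42.0, likelihood ratio), samples in the fit, mouse number as a block, sums with named pseudogenes and each mouse left out.

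The members and gene lists were chosen with earlier results of these data known. All 40 members are named. Values in every mouse are given for members with an adjusted p under 0.1, an unadjusted p under 0.05 in a pairwise comparison, or 1 of the 6 highest levels per kilobase. Other pathway genes are named where called, otherwise up to 2 per list with the smallest p. Some items that these rules select are not reported here.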

Additional observations from a re-analysis of the deposited data

Results flagged for a closer look

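Within the groups of 4 mice, 98 sets of levels and shares were searched for a mouse far from the other 3, and 4 were found, where chance alone gives about 1 in 20. Ldhb was at 448 CPM in ERβ cKO (sham) F5, against 290.3 to 310.1 CPM in the other mice of that group. Eno3 was at 3.65 CPM in ERβ cKO (sham) F4, against 4.89 to 5.08 CPM. Pcx was at 89.6 CPM in WT (GDX) F4, against 76.9 to 78.1 CPM. The share of Pygb among the phosphorylases was 77.5% in WT (GDX) F4, against 79.7% to 80.1% in the other 3.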

How the results depend on the processing

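The number of members called depended on the test and on single mice. For ERβ cKO (sham) against WT (GDX), where 2 members were called, an adjusted p under 0.05 gave 0, library size alone 1 (Pygm), edgeR's filterByExpr 1 (Pygm), DESeq2 7 and the likelihood ratio test 4 (Pygm, Pdk2, Aldoc and Eno3). All genes called there were 820, 1628 with DESeq2 and 1323 with the likelihood ratio test, and the share of them that was higher was 46.5%, 67.1% with library size alone (832 genes) and 57.0% with filterByExpr (872 genes). For WT (GDX) against WT (sham), where 0 members and 86 genes were called, no filter gave 2 members (Pdk2 and Slc2a1) and 289 genes, DESeq2 1 and 206, the likelihood ratio test 0 and 189, and all 11 samples in 1 fit 0 and 23. For ERβ cKO (sham) against WT (sham), 0 members were called under every alternative run, while genes called went from 6 to 39 without a filter, 52 with DESeq2 and 64 with the likelihood ratio test. Over the 3 groups, no filter gave 2 members (Pygm and Pdk2) and 445 genes against 0 and 221. With 1 mouse left out, members called were 0 to 9 for ERβ cKO (sham) against WT (GDX) (9 without ERβ cKO (sham) F5, with 2450 genes in all). For WT (GDX) against WT (sham) they were 0 to 2, with 2 without WT (sham) F4 (275 genes in all) or F1 (104 genes). Over the 3 groups they were 0 to 5, with 5 without ERβ cKO (sham) F5 (1077 genes) and 1 without F4 (438 genes). Medians of the members ranged over these leave-outs from -0.0659 to 0.0495, from -0.0248 to 0.1031 and from -0.1168 to -0.0404 for ERβ cKO (sham) against WT (sham), WT (GDX) against WT (sham) and ERβ cKO (sham) against WT (GDX), with 0.0495 and 0.1031 both reached without WT (sham) F1.

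With the mouse number as a replicate block, members called were 10 for ERβ cKO (sham) against WT (GDX) (3117 genes in all), 3 over the 3 groups (Aldoc, Ldhb and Pygm, 435 genes) and 0 in both other comparisons (76 and 101 genes). The numbers have no stated link between groups, so same-numbered mice were not treated as pairs. Their deviations from the group means correlated at 0.02 to 0.15 between ERβ cKO (sham) and WT (GDX), where 4 of 6 mice were closest to their own number. In the other comparisons the correlations were -0.22 to 0.08, and 0 of 6 mice in either were closest to their own number. Whether the number marks a batch was not tested.

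Relative to the astrocyte markers, which was added after the data were seen, Pygm and Pdk2 turned from below 0 to 0.0608 and 0.123 in ERβ cKO (sham) against WT (GDX), since this scale adds 0.49 to every gene. Of the log2 fold changes of members given in every mouse, 32 values of uncalled members changed sign under the processing alternatives and mice left out, and 31 under the astrocyte scale. The cause of these changes was not tested. Depth limits the members at a few CPM, such as Eno3, whose log2 fold change in that comparison has an SE of 0.25 against 0.12 for Pygm.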
